A study of Mus musculus with 6 samples.

Results

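The miR-106b-25 and miR-106a-363 clusters, the paralogs of the miR-17-92 cluster, were examined in LLC1 cells after 2D and lr-ECM 3D growth. Members were the mouse miRNAs whose name on the array began with miR-106a, miR-106b, miR-93, miR-25, miR-20b, miR-18b or miR-363. This gave 10 of the 566 mouse miRNAs on the array, 5 from each cluster, read by 28 probes. The miR-106b-25 cluster was represented by mmu-miR-106b-5p, mmu-miR-93-5p and mmu-miR-25-3p and by the opposite arms mmu-miR-106b-3p and mmu-miR-93-3p. The miR-106a-363 cluster was represented by mmu-miR-106a-5p, mmu-miR-20b-5p, mmu-miR-18b-5p and mmu-miR-363-3p and by the opposite arm mmu-miR-20b-3p. MiR-19b-3p and miR-92a-3p, which the miR-106a-363 and miR-17-92 clusters both encode, are not among these names and were left out of the members. The same holds for miR-92a-2-5p, an opposite arm of the miR-106a-363 cluster.

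LLC1 is a cell line from a primary Lewis lung carcinoma of a C57BL mouse. Cells of both groups were cultured for 48 h, the control group as a 2D monolayer and the lr-ECM 3D group in laminin rich extracellular matrix at 0.5 mg/ml above an agarose layer, with no allele or drug named for either group. There were 3 biological replicates per group, and each gave 100 ng of total RNA for Cy3 labelling and 1 Agilent array of mouse miRNAs. The series is limited to 1 cell line and 1 time point.

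A miRNA hairpin is cut into arms, of which one usually becomes the more abundant mature miRNA and guides the silencing complex to messenger RNAs that match its seed, the bases near its 5′ end. The miR-17-92 cluster and its paralogs are known for promoting proliferation and survival in tumors, through targets such as the cell cycle inhibitor Cdkn1a and the proapoptotic Bcl2l11. The miR-106b-25 hairpins lie in the gene Mcm7, which encodes a subunit of the DNA replication helicase, whereas miR-106a-363 is an X-linked cluster known from embryonic stem cells and from leukemias.

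All 10 members matched a RefSeq mature miRNA of mouse assembly GRCm38.p6 by name. The miR-106b-25 cluster spanned 498 bases with 3 hairpins, chr5:138165321-138165818 on the minus strand, inside Mcm7. The miR-106a-363 cluster spanned 875 bases with 6 hairpins, chrX:52741693-52742567 on the minus strand, inside no other gene of the table. The main arms are shown with 4 relatives of the miR-17-92 cluster, because the seeds define 3 families that run across the clusters and because several pairs differ at very few bases. The seed, bases 2 to 8 from the 5′ end, is in capitals.
miR-106b-5p: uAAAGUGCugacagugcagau, chr5:138165787-138165807
miR-93-5p: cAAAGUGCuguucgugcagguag, chr5:138165574-138165596
miR-106a-5p: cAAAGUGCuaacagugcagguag, chrX:52742541-52742563
miR-20b-5p: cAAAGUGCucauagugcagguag, chrX:52742159-52742181
miR-17-5p: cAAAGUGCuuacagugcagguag, chr14:115043684-115043706
miR-20a-5p: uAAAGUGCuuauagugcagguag, chr14:115044183-115044205
miR-18b-5p: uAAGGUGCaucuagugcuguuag, chrX:52742381-52742403
miR-18a-5p: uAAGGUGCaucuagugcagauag, chr14:115043867-115043889
miR-25-3p: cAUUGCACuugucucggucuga, chr5:138165332-138165353
miR-363-3p: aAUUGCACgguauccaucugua, chrX:52741697-52741718
miR-92a-3p: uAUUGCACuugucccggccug, chr14:115044476-115044496 and chrX:52741854-52741874

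The miR-17 seed AAAGUGC was shared by 4 members, miR-106b-5p, miR-93-5p, miR-106a-5p and miR-20b-5p, out of 7 mature mouse miRNAs with it in the table. The seed AUUGCAC was shared by miR-25-3p and miR-363-3p out of 6, and AAGGUGC was carried by miR-18b-5p and miR-18a-5p alone. Positions were counted from 1 at the 5′ end, with the base of the miR-17-92 miRNA given first. MiR-106a-5p differed from miR-17-5p at 1 base, U10A, miR-20b-5p differed from miR-20a-5p at 2 bases, U1C and U10C, and miR-18b-5p differed from miR-18a-5p at 2 bases, A18U and A20U. Between miR-25-3p and miR-363-3p 13 of 22 positions differed, all outside the seed. How much miR-17-5p or miR-20a-5p was read by the probes for miR-106a-5p or miR-20b-5p was not measured, and the array names of miR-106a and miR-17 carry an older version mark without an arm, so that both were read as the 5p arm.

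Before scaling, the mean signal over miRNA probes was 5.03 to 40.4 linear units on the 2D arrays, with 2D replicate 2 the dimmest, and 37.8 to 49.9 on the lr-ECM 3D arrays. The slide and scan day of the 2D arrays held no lr-ECM 3D array and the reverse, so batch and culture condition cannot be told apart in any comparison. Among miRNAs that mark cell types, 0 of 7 for epithelium were well above background on any array, although LLC1 is a carcinoma line, whereas 4 of 5 for mesenchyme were. For endothelium it was 0 of 2, for liver 0 of 1, for neurons 0 of 2 and for muscle 1 of 3. Of 6 for blood cells, miR-142a-3p and miR-142a-5p were well above background, and the summed scaled signal of the 6 was 275 to 519 on the 2D arrays and 249 to 267 on the lr-ECM 3D arrays, whose part in the results was not tested.

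The clusters were first compared by which of their members the arrays detected. A miRNA was called detected on an array where at least 50% of the spots of its brightest probe were flagged well above background. In each cluster some main arms were detected and the opposite arms were not. MiR-106b-5p, miR-93-5p, miR-25-3p and miR-20b-5p were detected on all 6 arrays, and miR-106a-5p on 2D replicates 1 and 3 and on all 3 lr-ECM 3D arrays. The counts of detected members were 5, 4 and 5 on 2D replicates 1, 2 and 3 and 5 on each lr-ECM 3D array, with miR-106a-5p as the missing member on the dimmest array. Of all 566 mouse miRNAs, 8.48% were detected on all 6 arrays and 21.2% on every array of at least 1 group.

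The other 5 members, miR-106b-3p, miR-93-3p, miR-18b-5p, miR-363-3p and miR-20b-3p, were detected on 0 of the 6 arrays. Their 18 probes had mean signals before scaling of -9.55 to 17.1 linear units, against negative control means of 4.52 to 8.02 on the 6 arrays. Of their 591 spots used, 1 was flagged well above background, a spot for miR-93-3p on 2D replicate 1. MiR-18b-5p had no spot flagged, while its relative miR-18a-5p, which differs from it at 2 bases near the 3′ end, was detected on all 6 arrays. No fold is given for these 5 members, since signals not well above background have no order. Their absence above background is a limit of detection and does not show that the miRNAs were not made.

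**Figure D1:**
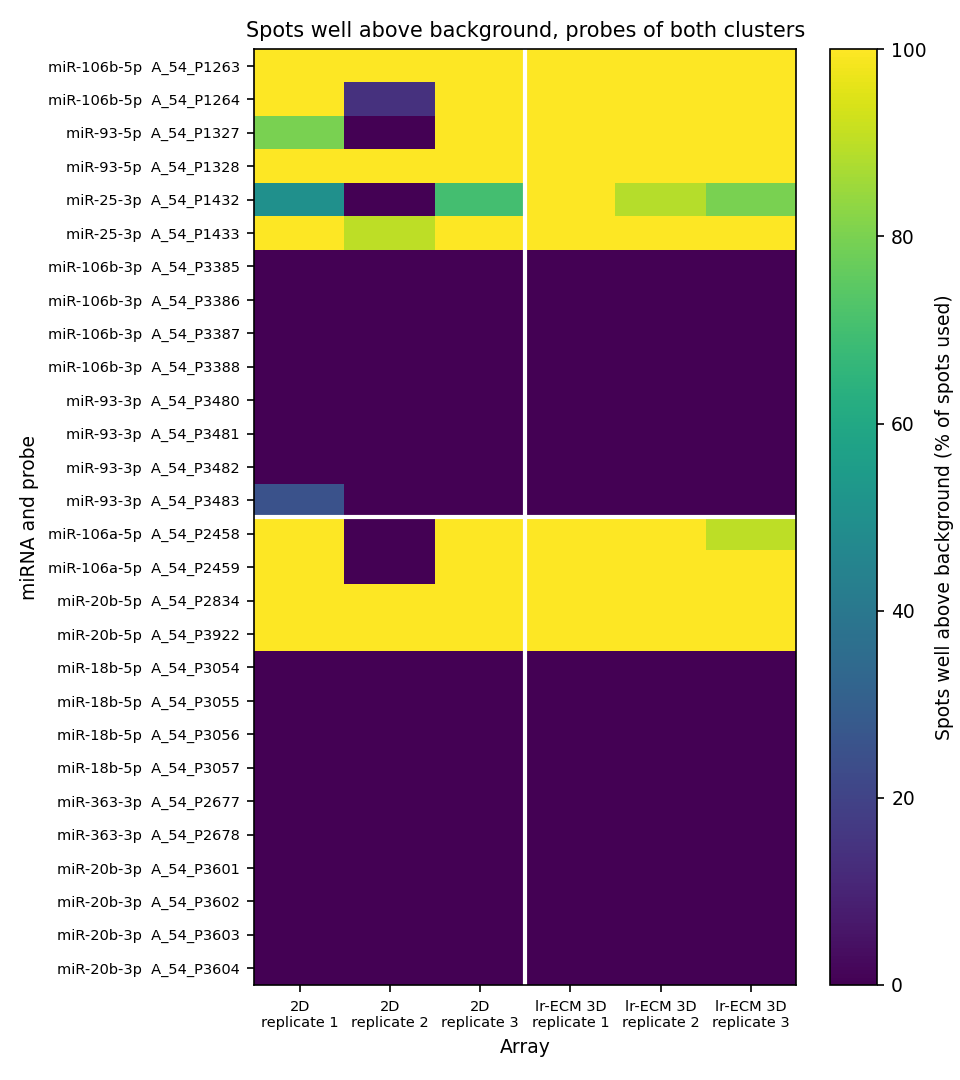
Share of spots well above background, in percent of the spots used, for the 28 probes (rows, labelled with miRNA and probe) on the 6 arrays (columns). The white lines separate miR-106b-25 (top) from miR-106a-363 and 2D from lr-ECM 3D. The brightest probes of miR-106b-5p, miR-93-5p, miR-25-3p, miR-106a-5p and miR-20b-5p are bright on all arrays apart from miR-106a-5p on 2D replicate 2, where both its probes and the dimmer probes of miR-93-5p and miR-25-3p are at 0%, and the 18 probes of the other 5 members are dark apart from a spot of miR-93-3p.

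The levels of the 5 detected members were then compared between the culture conditions. None of the 5 passed the test: the log2 changes, lr-ECM 3D minus 2D, were -0.24 to -0.07, and their sign turned under other scalings of the arrays. Levels are the log2 of the scaled signal of the brightest probe, and each miRNA was set only against itself, because different probes bind with different strength. Fewer cells with a miRNA and less of it per cell cannot be told apart in such RNA pools.

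The miRNA mmu-miR-106b-5p, the member that gives its cluster its name, had log2 signals of 7.54, 7.89 and 7.68 on 2D replicates 1 to 3 and 7.36, 7.51 and 7.51 on lr-ECM 3D replicates 1 to 3. Every 2D array was above every lr-ECM 3D array, though the nearest were 0.03 apart. The means were 7.70 ± 0.17 (SD, n = 3) and 7.46 ± 0.08 (SD, n = 3), a change of -0.24 with a 95% confidence interval of -0.59 to 0.11 and an adjusted p of 0.319 in limma.

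The miRNA mmu-miR-93-5p, which shares the miR-17 seed with miR-106b-5p and lies in the same transcript, had log2 signals of 7.68, 7.85 and 7.76 in 2D and 7.61, 7.77 and 7.68 in lr-ECM 3D. The highest lr-ECM 3D array lay above 2D replicates 1 and 3, so the groups overlapped. The change was -0.08, with a 95% confidence interval of -0.37 to 0.21 and an adjusted p of 0.658 in limma.

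The miRNA mmu-miR-25-3p, the miR-106b-25 member with the seed of miR-92a, had log2 signals of 7.08, 7.50 and 7.30 in 2D and 6.93, 7.16 and 7.15 in lr-ECM 3D. The array of 2D replicate 1 lay below the higher lr-ECM 3D arrays, so the groups overlapped. The change was -0.21, with a 95% confidence interval of -0.61 to 0.19 and an adjusted p of 0.407 in limma.

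The miRNA mmu-miR-106a-5p, the miR-17 relative of the X-linked cluster, had the narrowest spread in 2D, with log2 signals of 5.50, 5.45 and 5.55, and 5.55, 5.39 and 5.36 in lr-ECM 3D. The value of 5.45 on 2D replicate 2 was not well above background, as the lowest signal that passed there was 7.02. The change was -0.07, with a 95% confidence interval of -0.36 to 0.23 and an adjusted p of 0.712 in limma.

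The miRNA mmu-miR-20b-5p, the other X-linked member with the miR-17 seed, had log2 signals of 7.64, 8.05 and 7.88 in 2D and 7.53, 7.71 and 7.77 in lr-ECM 3D. The lowest 2D array lay within the lr-ECM 3D range. The change was -0.18, with a 95% confidence interval of -0.57 to 0.21 and an adjusted p of 0.439 in limma.

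Single arrays set much of the size of these changes. Without 2D replicate 2 the changes were -0.15 for miR-106b-5p, -0.03 for miR-93-5p, -0.11 for miR-25-3p, -0.09 for miR-106a-5p and -0.09 for miR-20b-5p. Without lr-ECM 3D replicate 1 they were -0.19, -0.04, -0.13, -0.12 and -0.11 in the same order, and without 2D replicate 1 they were -0.32, -0.12, -0.32, -0.06 and -0.29.

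**Figure D2:**
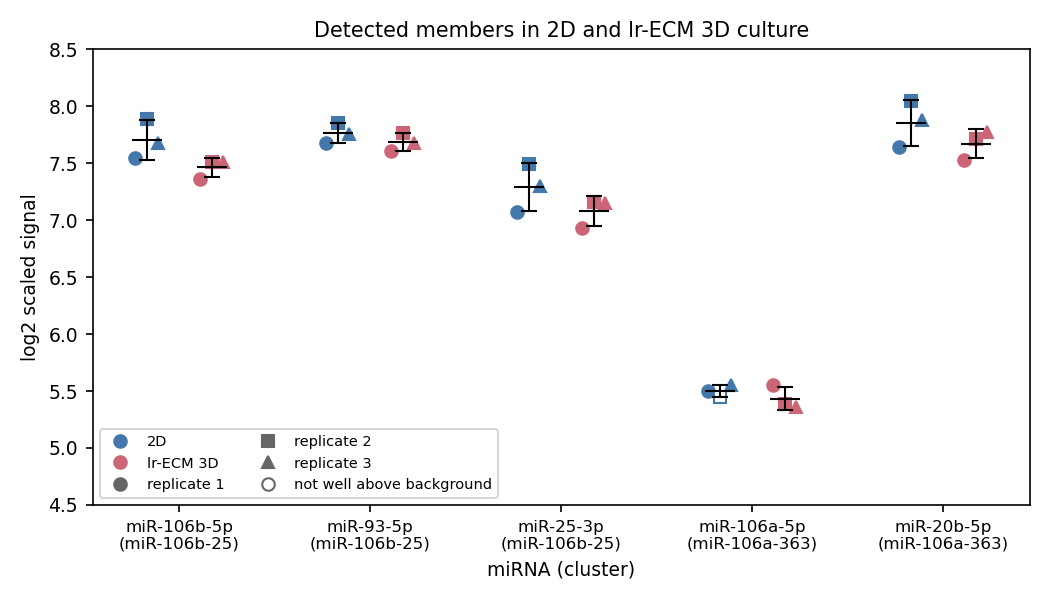
Log2 scaled signal (vertical axis) of the brightest probe of each detected member, for 2D (blue) and lr-ECM 3D (red) arrays, with symbols for the replicate, an open symbol where the probe was not well above background, and black bars for the mean and SD of 3 arrays. The groups lie close together for each miRNA, and 2D replicate 2 is the highest array for miR-106b-5p, miR-93-5p, miR-25-3p and miR-20b-5p. Heights of different miRNAs are read by different probes and cannot be compared.

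Of the 5 tested members 0 were called by limma, at an adjusted p under 0.05 together with a fold of at least 2, and 0 had an unadjusted p under 0.05. Among all 120 tested miRNAs 11.7% were called and 24.2% had an unadjusted p under 0.05. All 120 were detected on the 3 lr-ECM 3D arrays and 48 of them on the 3 2D arrays as well, as were 4 of the 5 members. Among these 48 the same limma fit called 0, and 3 (6.25%) had an unadjusted p under 0.05. Arrays of the groups stayed apart for 1 member, miR-106b-5p, out of 5, against 42.5% of all tested and 37.5% of the 48, and the change was below 0 for 5 of 5 (for 0 of 5 under 4 other scalings), against 63.3% of all tested and 95.8% of the 48. The median change of the members was -0.18, beside -0.11 for all 120 tested and -0.27 for the 48 detected on all 6 arrays. Ordered by change from the lowest, the members stood at places 42 to 67 of 120. Under the scaling to the 2D mean, the 95% confidence interval of each of the 5 lay within a 2-fold change either way. The same held for 51.7% of all tested, and over the members the intervals covered folds of 0.658 to 1.17. With no scaling, however, the changes of the 5 ran from 1.12 to 1.29 on the log2 scale, beyond 2-fold. The interval of miR-106a-5p also includes its value on 2D replicate 2, which was not well above background.

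**Figure D3:**
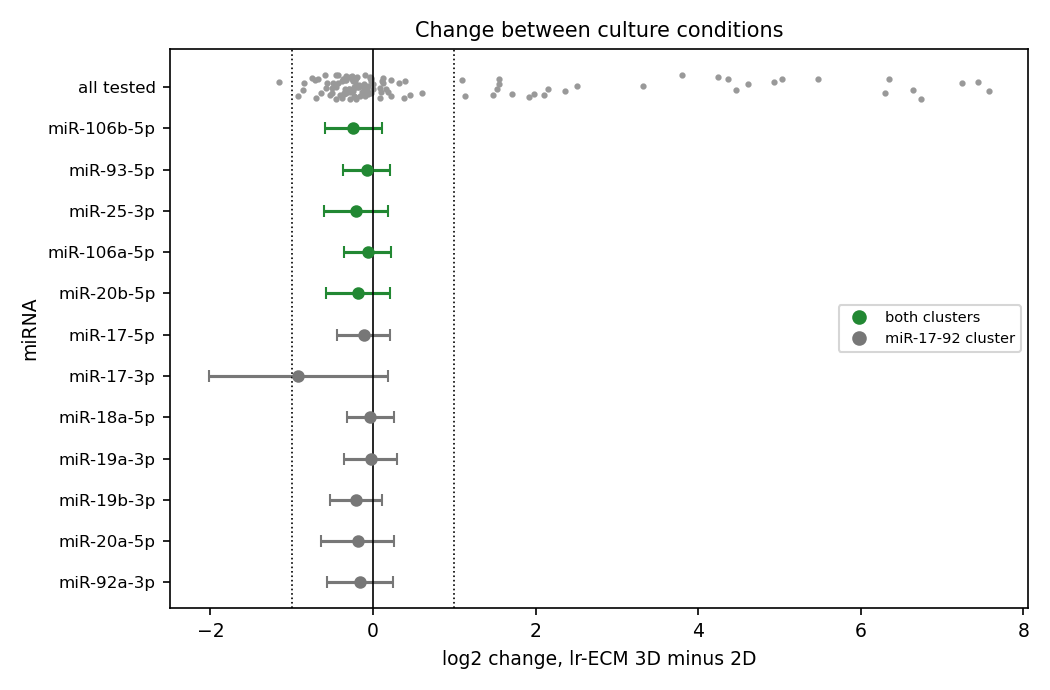
Log2 change, lr-ECM 3D minus 2D (horizontal axis), with 95% confidence intervals for the 5 detected members (green) and the 7 tested miRNAs of the miR-17-92 cluster (dark gray), above them the 120 tested miRNAs as light gray points. Dotted lines mark a 2-fold change. The members lie near 0 with intervals inside the dotted lines, under the scaling to the 2D mean. Under 4 other scalings all 5 members lie above 0.

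The changes depended on how the arrays were scaled. The 2D arrays differed much in brightness, whose part in this was not tested. Scaling to the mean of the 2D arrays gave a median change of -0.11 over all tested miRNAs. The median was 0.21 with the 75th percentile of the detected probes, 0.41 with normexp, 0.76 in the deposited log2 values and 1.24 with no scaling, and under these 4 settings all 5 members had changes above 0. Relative to the median of each of 7 scalings, miR-106b-5p ranged from -0.15 to 0.06, miR-25-3p from -0.12 to 0.00 and miR-20b-5p from -0.10 to 0.11. MiR-93-5p was at or above the median in all 7, by 0.01 to 0.21. MiR-106a-5p ranged most widely, from -0.43 under quantile normalization to 0.13 in the deposited values. No member was called under any of the 7 scalings. Among the alternatives outside these 7, miR-93-5p fell furthest below the median with the total gene signal (-0.45) and with the mean over all probes (-0.11). The place of a member also depended on the reference. Under the scaling to the 2D mean, the median of the 48 miRNAs detected on all 6 arrays was -0.27. All 5 members lay above that median, miR-106b-5p by 0.03 and miR-93-5p by 0.19.

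**Figure D4:**
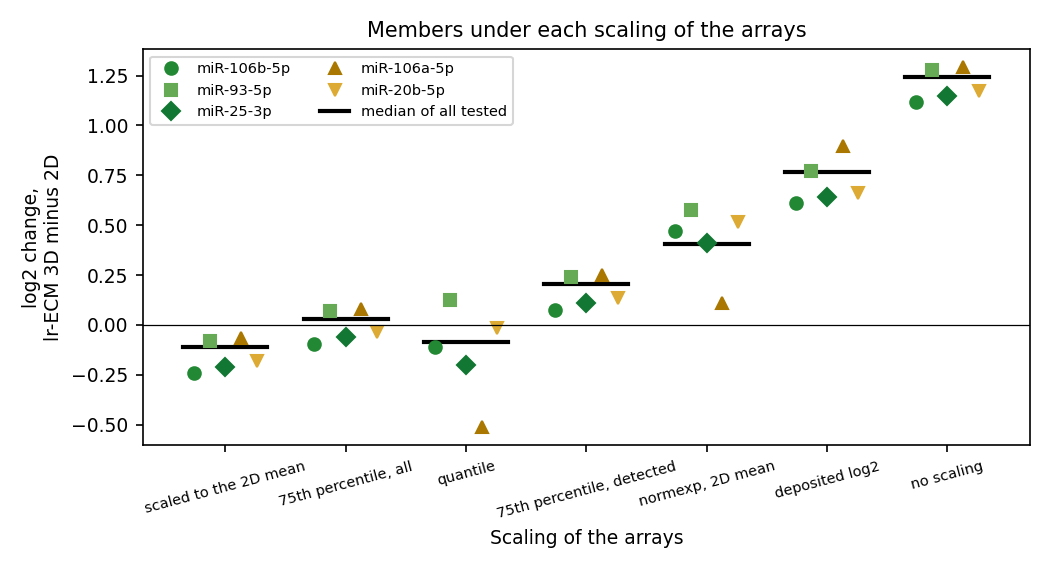
Log2 change, lr-ECM 3D minus 2D (vertical axis), of the 5 detected members (symbols) and the median of all 120 tested miRNAs (black bars) under 7 scalings of the arrays. The members move with the median, from just below 0 to above 1, and miR-106a-5p falls away from it under quantile normalization and normexp.

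The signals before scaling are given for the arrays of closest mean signal, which does not make them independent of the scaling to that mean. The mean signals of 2D replicate 3 and of lr-ECM 3D replicates 2 and 3 were 40.4, 38.7 and 37.8 linear units, while 101, 120 and 135 mouse miRNAs were detected on them. On these arrays miR-106b-5p read 371, 318 and 309, miR-93-5p 392, 378 and 347, and miR-25-3p 285, 249 and 241. MiR-106a-5p read 84.9, 72.7 and 69.9, and miR-20b-5p 426, 365 and 371. The 2D array was the highest for each member, as it was in mean signal, with 1 array on that side and therefore no test. After scaling, miR-93-5p was 216 on 2D replicate 3 and 218 on lr-ECM 3D replicate 2, the reverse order. On the dimmest array, 2D replicate 2, the signals were 53.4, 52.2, 40.8, 9.84 and 59.6 in the same order of miRNAs.

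Differences between members on the same array do not depend on a scale factor, so pairs were compared between and within the clusters. They still depend on other steps, such as quantile normalization and background correction, under which some of them changed sign. Of 9 pairs 8 could be compared, while miR-25-3p with miR-363-3p could not because miR-363-3p was not detected. No pair passed the test, in a design that could not go below p = 0.1 by exact permutation: the changes between the culture conditions ran from -0.18 to 0.13 on the log2 scale, and the exact two-sided permutation test, adjusted over the 8 pairs, gave p from 0.8 to 1.

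Between the clusters, the difference of miR-106b-5p minus miR-106a-5p was 2.04, 2.44 and 2.13 in 2D and 1.81, 2.13 and 2.15 in lr-ECM 3D, which is -0.18 as a change, with an exact permutation p of 0.6. For miR-93-5p minus miR-20b-5p it was 0.04, -0.19 and -0.12 in 2D and 0.08, 0.05 and -0.09 in lr-ECM 3D, which is 0.10 as a change, with an exact permutation p of 0.2. In both pairs the arrays of the groups were interleaved. On 2D replicate 2, the array with 2.44, miR-106a-5p was not well above background. Without that array the changes were -0.06 and 0.05.

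Within miR-106b-25, the difference of miR-106b-5p minus miR-93-5p was -0.14, 0.03 and -0.08 in 2D and -0.25, -0.25 and -0.17 in lr-ECM 3D. This was the only pair of the 8 whose groups did not overlap, with a change of -0.16, and of -0.12 without 2D replicate 2. Its exact permutation p was 0.1, the smallest possible, and 0.8 after adjustment over the 8 pairs. How often pairs of other miRNAs separate in this way was not computed, so the separation is given as a description only. The difference of miR-106b-5p minus miR-25-3p was nearly constant, at 0.38 to 0.47 in 2D and 0.35 to 0.44 in lr-ECM 3D, a change of -0.03. Within miR-106a-363, miR-106a-5p minus miR-20b-5p differed by 0.12 between the groups, with SDs of 0.23 and 0.23 (n = 3 each). This value rested on single arrays, since it was -0.0045 without 2D replicate 2, where miR-106a-5p was not well above background, and -0.01 without lr-ECM 3D replicate 1.

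Against their closest miR-17-92 relatives the X-linked members differed between the groups by 0.05 and 0.00, and by 0.09 and -0.06 without 2D replicate 2, where neither miR-106a-5p nor miR-17-5p was well above background. The difference of miR-106a-5p minus miR-17-5p, whose sequences differ at 1 base, averaged -0.32 in 2D (SD 0.08, n = 3) and -0.28 in lr-ECM 3D (SD 0.06, n = 3). The difference of miR-20b-5p minus miR-20a-5p averaged -1.21 in 2D (SD 0.10, n = 3) and -1.20 in lr-ECM 3D (SD 0.05, n = 3). The size of such a difference depends on the probes, and whether the paired probes read the same molecules was not tested.

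**Figure D5:**
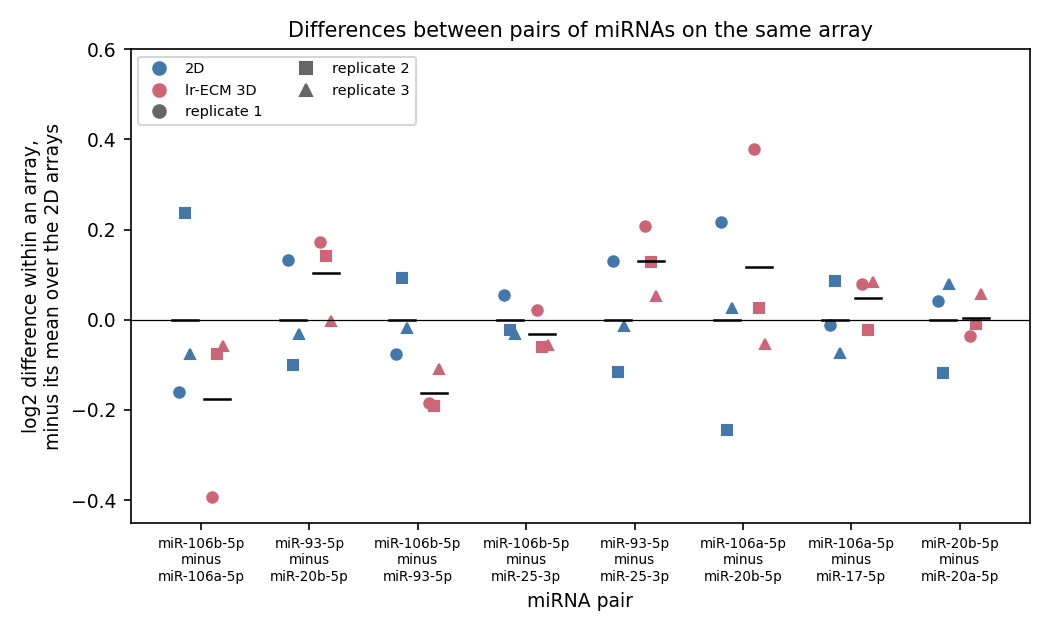
Log2 difference between the miRNAs of a pair on the same array, minus its mean over the 2D arrays (vertical axis), for 8 pairs, with symbols for the replicate, colors for 2D (blue) and lr-ECM 3D (red), and black bars for group means. The lr-ECM 3D means lie within 0.18 of the 2D means. The groups separate for miR-106b-5p minus miR-93-5p alone, with an exact permutation p of 0.1, or 0.8 after adjustment over the 8 pairs.

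The wider family was followed in 14 miRNAs: those of the miR-17-92 cluster, the others of the miR-25 seed, and miR-92a-2-5p of the miR-106a-363 cluster. Of these 7 were tested and 0 were called, beside 11.7% of all tested miRNAs and 0 of the 48 detected on all 6 arrays. The tested relatives were among these 48 apart from miR-17-5p and miR-17-3p. The 7 comprised miR-17-5p, the founding member of the seed family, with a change of -0.11, miR-17-3p with -0.92, miR-18a-5p with -0.03 and miR-19a-3p with -0.03. MiR-19b-3p had -0.21, miR-20a-5p -0.19 and miR-92a-3p, the relative of miR-25-3p encoded on chromosomes 14 and X, -0.16. The value of miR-17-3p rested on 2D replicate 2, where it was not well above background with a log2 signal of 6.92, beside 5.43 and 5.40 on 2D replicates 1 and 3, and without that array its change was -0.42. The groups did not overlap for 2 of the 7, miR-17-3p and miR-19b-3p, beside 42.5% of all tested and 37.5% of the 48. The remaining 7, miR-18a-3p, miR-19a-5p, miR-20a-3p, miR-92a-2-5p, miR-92b-3p, miR-32-5p and miR-367-3p, were detected on 0 arrays. They include miR-92a-2-5p, the arm made by the miR-106a-363 copy of miR-92a and not by the other.

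Each detected member was read by 2 probes with 10 spots each, and under the main scaling the dimmer probe gave changes below 0 as well. For all but miR-20b-5p this rests in part on a 2D replicate 2 signal not well above background. The values were -0.36 for miR-106b-5p, -0.25 for miR-93-5p, -0.10 for miR-25-3p, -0.17 for miR-106a-5p and -0.34 for miR-20b-5p. The probes of miR-106b-5p were 1.04 to 1.12 apart on the log2 scale on the 2D arrays and 1.13 to 1.23 on the lr-ECM 3D arrays. Those of miR-20b-5p were 0.49 to 1.15 apart, with the smallest distance on 2D replicate 2 and the largest on lr-ECM 3D replicate 3. For miR-106a-5p the probes lay within 0.31 of each other and exchanged their order between arrays. On the brightest probe the spots of an array varied with a coefficient of variation of 2.73% to 59.1%, the highest being miR-106a-5p on 2D replicate 2.

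Across the 6 arrays, the 4 members detected on all of them varied together with many other miRNAs, and each had its highest value on 2D replicate 2. MiR-106a-5p was not well above background on that array, so its place there has no order and it was left out of the correlations. Pearson correlations of log2 signal, given as a description over 6 arrays that share their scale factors and slides, were 0.973 between miR-106b-5p and miR-25-3p, 0.908 between miR-106b-5p and miR-93-5p (places 7 and 25 of the 47 candidates for miR-106b-5p), and 0.991 between miR-25-3p and miR-20b-5p, which come from different clusters. The median over all pairs of the 48 miRNAs detected on all arrays was 0.815. Out of the 47 candidates, those most like miR-106b-5p were miR-322-5p at 0.992, miR-199b-5p at 0.988 and miR-130a-3p at 0.984. Those most like miR-93-5p were let-7c-5p at 0.952, let-7g-5p at 0.950 and miR-92a-3p at 0.946. For miR-25-3p they were let-7g-5p at 0.996, miR-20b-5p at 0.991 and let-7d-5p at 0.981. For miR-20b-5p they were miR-25-3p at 0.991, let-7g-5p at 0.983 and let-7d-5p at 0.973.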

How the data were processed

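MiRNA arrays of LLC1 cells under 2D and lr-ECM 3D conditions were used, 3 per group by the sample labels. Scanner files as deposited give linear spot intensities, extracted by the authors with Agilent Feature Extraction 10.7.3.1 after background subtraction, with no normalization between arrays. The authors also deposited a table of log2 values, whose columns equal the log2 intensities floored at 1 plus a constant per array (largest departure 0.049), so that each column has a mean of 1.79. Of the other columns in the deposited files, flags were used to drop spots and to call detection. The median pixel signals and the total gene signal were used in alternatives only.

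Control and outlier spots were dropped (0 spots were saturated), the spots of each probe were averaged, and each array was multiplied by a factor (0.447 to 4.43) that brought its mean signal, taken over 1712 miRNA probes, to that of the 2D group. This is one reading of the study's methods, and the deposited table is centred on equal log2 means instead. The log2 was taken after a floor of 1. A miRNA was represented by its probe of highest mean log2 signal, and was tested when detected (at least 50% of spots flagged well above background) on each of the 3 arrays in a group. The 120 such miRNAs were tested two-sided with lmFit and eBayes of limma 3.58.1 (R 4.3.3) with Benjamini-Hochberg adjustment over all 120. The script was tested on simulated data. Pairs of miRNAs both detected on at least 2 arrays of each group were compared within arrays by an exact two-sided permutation test. Sequences and positions were taken from RefSeq tables of GRCm38.p6. The genome build of the array annotation was not used.

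The text names all members, the miR-17-92 cluster with the other miRNAs of the miR-25 seed, and for each member detected on all 6 arrays the 3 miRNAs of highest correlation. The members, lists and tests were chosen with earlier results of these data known. Alternatives covered scaling, background correction (normexp with an offset of 50, on median pixel signals), summary of a miRNA, floor, filter, test, replicate block and each array left out. Precision is limited by the number of arrays.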

Additional observations from a re-analysis of the deposited data

How the results depend on the processing

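Of the members 0 were called under any of the 21 alternatives, and detection of 5 members per lr-ECM 3D array held in all 6 alternatives tried, with a 2D mean of 4.33 to 5. The sign of a change depended on the scaling. It turned for all 5 members, in the order miR-106b-5p, miR-93-5p, miR-25-3p, miR-106a-5p and miR-20b-5p, with the 75th percentile of detected probes (0.076, 0.24, 0.11, 0.25 and 0.13), with normexp (0.47, 0.58, 0.41, 0.11 and 0.52), in the deposited log2 values (0.61, 0.77, 0.64, 0.90 and 0.66) and with no scaling (1.12, 1.28, 1.15, 1.29 and 1.17). With the 75th percentile of all probes it turned for miR-93-5p (0.068) and miR-106a-5p (0.082), and under quantile normalization for miR-93-5p (0.13). With the total gene signal it turned for miR-93-5p (0.20), miR-25-3p (0.10) and miR-106a-5p (1.88), the last because that column lists miR-106a-5p at 0.1 on 2D replicate 2, which fell to the floor. The adjusted p of a member change in limma lay between 0.195 and 0.986 over the alternatives.

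Of all tested miRNAs 14 were called, and 24 with the 75th percentile of all probes, 26 each with no scaling, the deposited values and the total gene signal, 23 under quantile normalization and 32 of 566 with no filter. The filter on all 6 arrays left 48 miRNAs and 0 calls by limma. Leaving out 1 array gave 12 to 31, the highest without 2D replicate 2. The replicate number as a block gave 12 calls and 0 among the members. Same-numbered arrays of the groups correlated at 0.611, 0.707 and 0.676 for replicates 1, 2 and 3. Arrays of the groups with unlike numbers correlated about as much, at 0.615 to 0.707, and 1 of 6 arrays correlated best with its own number. With so few arrays this does not settle whether the numbers pair the samples. The block changed no call of a member. Of the pair differences, 19 of 114 values moved by over 1 SD, with exact permutation p of at least 0.1, the smallest possible. The change of miR-106b-5p minus miR-106a-5p, -0.18 in the main setting, was 0.40 under quantile normalization, 0.36 with normexp and -1.95 with the total gene signal. That of miR-106a-5p minus miR-20b-5p, 0.12 in the main setting, was -0.49, -0.41 and 1.92 in the same order.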
